A study of Mus musculus with 16 samples.

Results

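The genes described here are 39 listed mouse genes of the DNA damage response and of DNA repair, measured by RNA-seq in pieces of the heart ventricles. They were chosen by symbol as genes of these pathways, with no threshold on a measured change, and all 39 were found among the 22372 genes of the table. Of these, 38 reached 10 normalized counts in at least 4 of the 16 libraries and were tested together with every other gene that did so, 13331 in all. The remaining member, Fanci, which forms the clamp that is monoubiquitinated in the Fanconi anemia pathway, averaged 9.66 ± 2.38 (SD, n = 4) normalized counts without and 6.07 ± 1.46 with THZ1 after sham surgery, and 9.07 ± 0.972 without and 5.81 ± 2.37 with it after constriction, and was not tested.

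The 16 mice were of the C57BL/6J strain, began the experiment at an age of 10 to 12 weeks and fell into 4 groups of 4. Transverse aortic constriction (TAC) narrowed the aortic arch with a suture so that the left ventricle pumped against a raised pressure, and the sham mice had the same operation without the suture. Each arm received either vehicle or THZ1, a covalent inhibitor of the transcription kinases CDK7, CDK12 and CDK13, by injection into the abdominal cavity at 10 mg/kg, given 2 times daily between postoperative days 1 and 60 according to the labels. The sham arms are called Sham-Veh and Sham-THZ1 and the constricted arms TAC-Veh and TAC-THZ1, and no gene was altered in any of them. The drug reached the whole animal, and each library came from a piece of ventricle that mixes muscle and other cells, so fewer cells of a type and less RNA per cell cannot be told apart. The p-values for single genes rest on the spread between mice within a group, pooled over the 4 groups and moderated across genes. Those for summed lists rest on the 4 mice of each group compared.

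Cells detect broken or blocked DNA through sensor complexes that switch on the kinases ATM and ATR, and these in turn pause the cell cycle and recruit repair proteins. Breaks through both strands are either copied back from the sister chromatid by homologous recombination, which is used in dividing cells and needs BRCA1, BRCA2 and their partners, or sealed directly by the Ku proteins, DNA-PK and ligase IV, which also works in cells that do not divide. The Fanconi anemia proteins unhook crosslinked strands. Cardiomyocytes of the adult heart rarely divide, and CDK12 is known from cultured cells to maintain transcription of several long genes of homologous recombination.

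The recovered reads per library ranged from 21.4 M to 35.8 M (median 28.2 M), and the 39 member genes took between 0.0270% and 0.0367% of them. Marker genes showed ventricular muscle in every library, the 12 cardiomyocyte markers summing to at least 1089886 normalized counts. Their sum was lower in TAC-Veh than in Sham-Veh by 0.57 on the log2 scale and higher in TAC-THZ1 than in TAC-Veh by 0.43, while the sum of 10 fibroblast markers moved by 1.11 and -0.91 (two-sided exact permutation p = 0.0286 each, the smallest that 4 against 4 can give). The sums of 10 macrophage markers differed by 0.59 (exact permutation p = 0.0286) and -0.09 (exact permutation p = 0.686), those of 8 endothelial markers by -0.04 (exact permutation p = 0.686) and -0.19 (exact permutation p = 0.0857), and those of 8 smooth muscle and pericyte markers by 0.44 and -0.31 (exact permutation p = 0.0286 each). Most of that last sum was Des, which heart muscle also expresses, and 4 of these 8 genes were lower and 2 higher with constriction, with a median of -0.19. Lymphocyte markers summed to at most 147 normalized counts, erythroid markers ranged from 5694 to 31321, and the sum of 6 atrial markers, which is mostly Nppa and also rises in stressed ventricles, ranged from 2536 to 4649 in the sham libraries and from 13035 to 201188 in the constricted ones. Library TAC-Veh 1 was the lowest of its group for 21 of the 38 members, the most of any library, and calls that changed without it are given beside their results.

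Per kb of exon, which allows genes to be compared, the members ranged over the 16 libraries from a mean of 1.69 to 336 normalized counts with a median of 39.1, against a median of 100 over all genes tested. Parp1, which senses nicked DNA and builds poly(ADP-ribose), was the most abundant at 336 normalized counts per kb, followed by Nbn of the MRN complex at 247 and by Xrcc5, which encodes Ku80, at 207. Xrcc6, the gene for Ku70, came next at 142. Brca1 at 1.69 and Fancd2 at 1.74 normalized counts per kb were the lowest of the 38, with Fanca at 3.45 and Bard1 at 3.71 above them. The ranges of these low genes overlapped from library to library, so their order is not resolved. Apart from Rad51d (48.6), Rad52 (42.6), Rbbp8 (42.2), Fance (57.0) and Fancl (36.4), the homologous recombination and Fanconi anemia genes had no higher level per kb than Fancg.

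**Figure D1:**
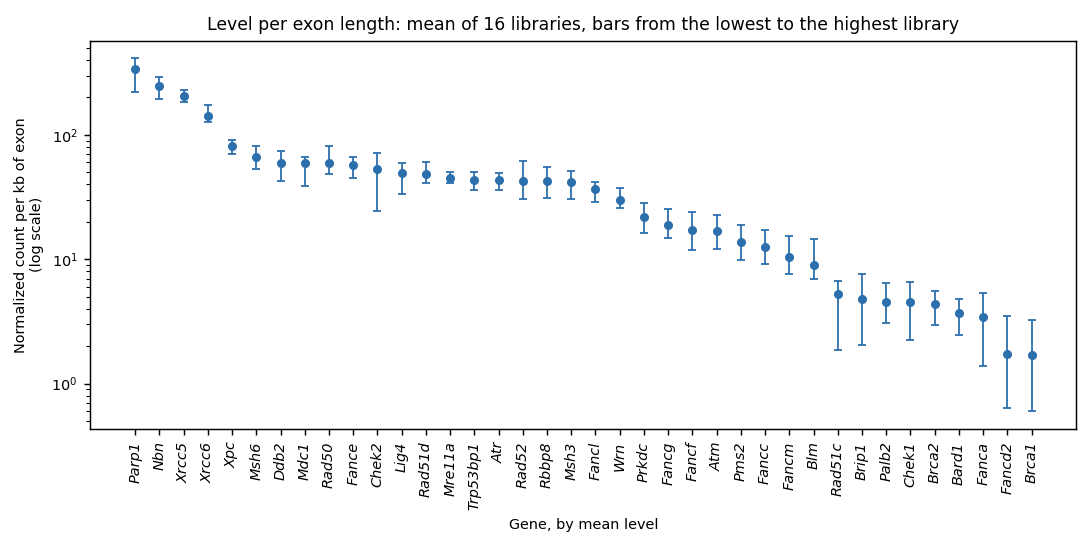
Normalized count per kb of exon on a log axis for the 38 tested genes, ordered by mean. Points are means of 16 libraries and bars run from the lowest to the highest library. Parp1 (336) lies at the left end and Brca1 (1.69) at the right.

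The first comparison, TAC-Veh against Sham-Veh, asked how pressure overload moved these genes. Rad52, Rbbp8, Fancm, Blm and Xrcc6 rose, and Parp1, Fancc, Nbn, Lig4, Msh3, Ddb2, Mdc1, Trp53bp1, Msh6 and Xrcc5 fell (limma, Benjamini-Hochberg adjusted p under 0.05). The 5 of 38 that were higher are 13.2%, below the 21.4% of all tested genes called higher, and the 10 that were lower are 26.3%, close to the 23.6% of all tested genes called lower. The members' median log2 fold change was -0.08 beside -0.003 over all genes, and the median size was 0.23 beside 0.26. No member changed by more than 0.60 on the log2 scale. Of the 15 calls, 7 held when any 1 of the 16 libraries was left out, those of Fancc, Lig4, Nbn, Parp1, Rad52, Rbbp8 and Trp53bp1. The number higher was 2 without Sham-Veh 2 and 3 without Sham-Veh 1, 3 or 4 or TAC-Veh 2, and the number lower was 5 without Sham-Veh 2 and 6 without TAC-Veh 2.

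**Figure D2:**
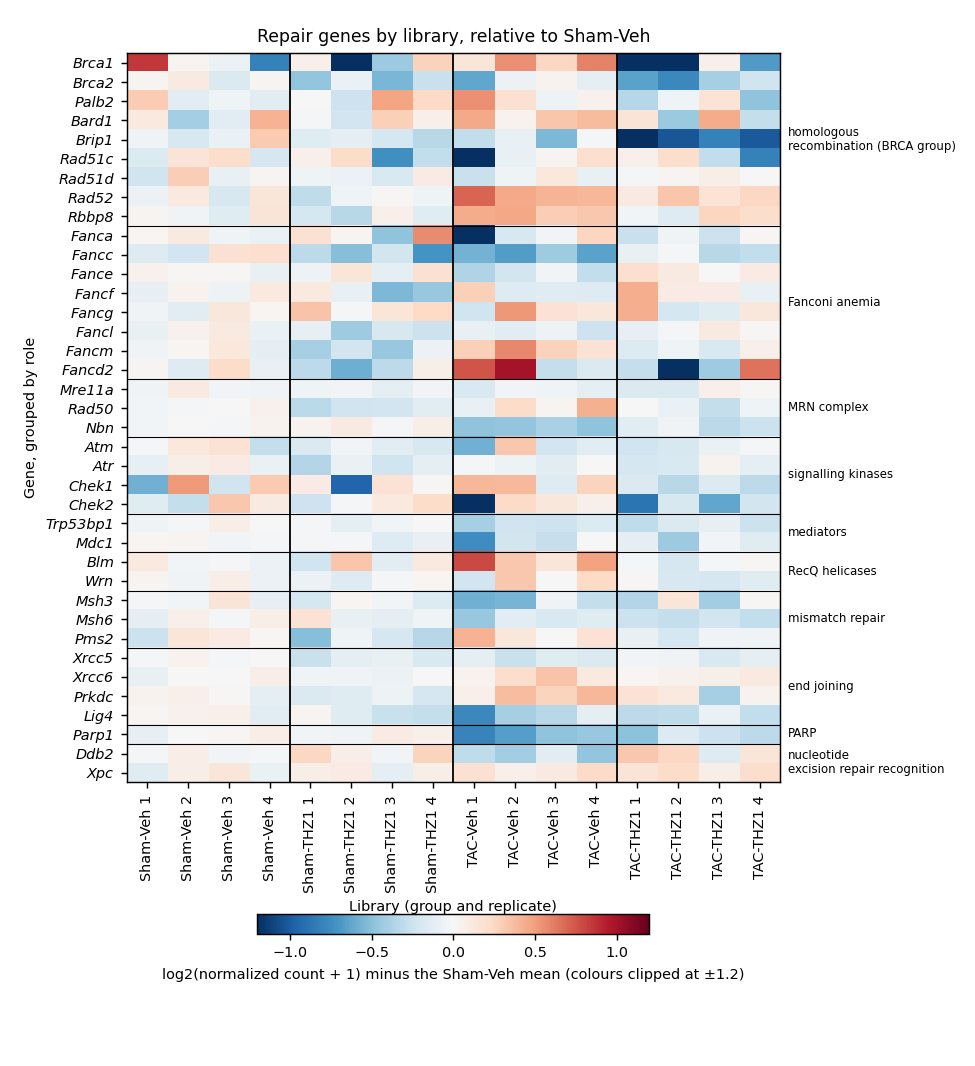
Each tested gene in each library as log2(normalized count + 1) minus the Sham-Veh mean of that gene, with genes in rows by role and libraries in columns by group. Colours run from blue (lower) to red (higher) and are clipped at 1.2 in either direction. The blue of Parp1 and Nbn in TAC-Veh and of Brip1 in TAC-THZ1 spans all 4 libraries of the group, while several single cells of library TAC-Veh 1 are dark.

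Parp1 and Fancc had the largest decreases, whose sizes differed by less than their standard errors. The normalized counts of Parp1 were 1384, 1478, 1510 and 1558 in Sham-Veh and 851, 937, 1063 and 1078 in TAC-Veh. Every constricted library lay below every sham library, and the log2 fold change was -0.60 ± 0.08 (SE, adjusted p = 2.9e-05). Parp1 lies on chromosome 1 at 182499086 to 182531384 (mm9, plus strand) and overlaps no other annotated gene.

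Nbn, which encodes the NBS1 subunit that brings ATM to breaks, had 671, 689, 681 and 707 normalized counts in Sham-Veh and 491, 493, 524 and 491 in TAC-Veh. The groups did not overlap and each was tight, giving -0.46 ± 0.06 (adjusted p = 3.3e-05). The other subunits of its complex, the nuclease gene Mre11a (-0.10 ± 0.07, adjusted p = 0.307) and Rad50 (0.14 ± 0.10, adjusted p = 0.246), did not pass the test.

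Among the Fanconi anemia genes, Fancc and Fancm moved in opposite directions. Fancc, a subunit of the core ubiquitin ligase complex, had 107, 101, 135 and 137 normalized counts in Sham-Veh and 79.9, 74.4, 88.2 and 75.8 in TAC-Veh, without overlap (-0.58 ± 0.13, adjusted p = 0.00241). Fancm, the DNA translocase that anchors this complex on chromatin, had 78.5, 81.8, 88.4 and 74.7 in Sham-Veh and 98.8, 121, 98.1 and 91.1 in TAC-Veh. All constricted libraries were higher (0.33 ± 0.12, adjusted p = 0.0346), but the call ended without Sham-Veh 1 (adjusted p = 0.071), Sham-Veh 2 (0.0613), Sham-Veh 4 (0.0912) or TAC-Veh 2 (0.12). The other 6 tested genes of this pathway had log2 fold changes from -0.31 (Fanca) to 0.32 (Fancd2), with standard errors of 0.28 and 0.36 for those at the ends, and did not pass the test. Fanca had 11.8 normalized counts in TAC-Veh 1 and stood at 0.01 ± 0.21 without that library. Fancc overlaps the annotated genes 2010111I01Rik and Gm16133 on the opposite strand, and the study's methods state that reads were counted by strand. It also overlaps Gm16132, a processed transcript, and Gm16134, a pseudogene, on the same strand, which counting by strand cannot separate from it.

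In homologous recombination, Rad52 and Rbbp8 rose and no gene fell. Rad52, whose protein anneals single strands, had 121, 138, 111 and 141 normalized counts in Sham-Veh and 207, 175, 169 and 168 in TAC-Veh (0.49 ± 0.11, adjusted p = 0.0015). Rbbp8, which encodes CtIP and starts the trimming of broken ends, had 159, 151, 140 and 173 in Sham-Veh and 212, 215, 191 and 194 in TAC-Veh (0.38 ± 0.11, adjusted p = 0.0109). The groups did not overlap for either gene. Brca1 (0.38 ± 0.41), Brca2 (-0.19 ± 0.17), Palb2 (0.18 ± 0.21), Bard1 (0.30 ± 0.23), Brip1 (-0.24 ± 0.18), Rad51c (-0.34 ± 0.34) and Rad51d (-0.07 ± 0.11) did not pass the test, with adjusted p-values from 0.296 to 0.613. Rad51c had 8.23 normalized counts in TAC-Veh 1 and stood at 0.05 ± 0.27 without it. For Brca1, Sham-Veh itself ran from 8.04 to 27.6 normalized counts, so a change was not detectable beyond that spread.

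Blm, a RecQ helicase that dissolves recombination intermediates, had 44.6, 40.1, 40.7 and 39.1 normalized counts in Sham-Veh and 71.7, 51.5, 45.6 and 57.9 in TAC-Veh, without overlap (0.44 ± 0.16, adjusted p = 0.0338). Library TAC-Veh 1 was the highest, and without it the adjusted p was 0.108. The call also ended without Sham-Veh 2, 3 or 4 or TAC-Veh 4 (adjusted p from 0.0611 to 0.075). Its relative Wrn, which is mutated in Werner syndrome, stood at 0.08 ± 0.11 (adjusted p = 0.541).

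The Ku subunits moved apart. Xrcc6 rose from 575, 615, 615 and 642 normalized counts to 630, 709, 776 and 662 (0.18 ± 0.06, adjusted p = 0.0334), with overlapping groups. Xrcc5 fell from 563, 586, 557 and 566 to 526, 472, 515 and 503 (-0.17 ± 0.06, adjusted p = 0.0283), without overlap. Both calls were small and ended without single libraries, that of Xrcc6 without Sham-Veh 1, 2 or 3 or TAC-Veh 2 or 3 (adjusted p up to 0.108) and that of Xrcc5 without Sham-Veh 2 or 4 or TAC-Veh 2 (up to 0.0862). Lig4, the ligase that seals the ends, had 245, 251, 252 and 219 normalized counts in Sham-Veh and 141, 183, 191 and 224 in TAC-Veh (-0.40 ± 0.12, adjusted p = 0.0117). Its groups overlapped only through the lowest sham and the highest constricted library, and the log2 fold change was -0.28 without TAC-Veh 1. Prkdc, the catalytic subunit of DNA-PK, averaged 271 ± 14.1 in Sham-Veh and 329 ± 33.9 in TAC-Veh (0.27 ± 0.11, adjusted p = 0.0521) and passed the test without TAC-Veh 1 (0.34 ± 0.11, adjusted p = 0.0184), without TAC-THZ1 1 (adjusted p = 0.0472) or without TAC-THZ1 3 (adjusted p = 0.0122).

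The mediators that gather on damaged chromatin both fell. Trp53bp1, which favours end joining over resection, had 650, 663, 711 and 678 normalized counts in Sham-Veh and 511, 571, 570 and 601 in TAC-Veh, without overlap (-0.26 ± 0.07, adjusted p = 0.00374). Mdc1, the scaffold that binds phosphorylated histone H2AX, had 491, 493, 472 and 474 in Sham-Veh and 288, 415, 399 and 483 in TAC-Veh (-0.31 ± 0.12, adjusted p = 0.0472). Its groups overlapped, TAC-Veh 1 was far below the rest, and without that library the log2 fold change was -0.16 (adjusted p = 0.154). The call for Mdc1 also ended without 12 other libraries taken singly, and held only without TAC-Veh 4, TAC-THZ1 2 or TAC-THZ1 3.

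Of the mismatch repair genes, Msh3 and Msh6, whose proteins recognize mispaired bases, fell, and Pms2 did not pass the test (0.18 ± 0.12, adjusted p = 0.244). Msh3 had 336, 334, 381 and 319 normalized counts in Sham-Veh and 229, 232, 332 and 281 in TAC-Veh, with overlap (-0.36 ± 0.13, adjusted p = 0.0342). Msh6 had 287, 321, 304 and 323 in Sham-Veh and 225, 282, 272 and 278 in TAC-Veh, without overlap (-0.23 ± 0.09, adjusted p = 0.039). Both calls ended without TAC-Veh 1 (adjusted p = 0.0933 for Msh3 and 0.12 for Msh6) and without some sham libraries, namely Sham-Veh 1, 2 or 3 for Msh3 and Sham-Veh 2, 3 or 4 for Msh6, and that of Msh3 also without TAC-Veh 2 (adjusted p = 0.103).

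In nucleotide excision repair, which removes bulky lesions, Ddb2 fell from 160, 173, 159 and 161 normalized counts to 132, 122, 149 and 117 (-0.33 ± 0.11, adjusted p = 0.0228). No library of the 2 groups overlapped, and the call ended without Sham-Veh 2 (adjusted p = 0.0636), TAC-Veh 2 (0.0577) or TAC-Veh 4 (0.059). The other damage recognition gene, Xpc, had 0.15 ± 0.08 (adjusted p = 0.126). Of the signalling kinases, Atm (-0.15 ± 0.15), Atr (-0.06 ± 0.08), Chek1 (0.22 ± 0.28) and Chek2 (-0.20 ± 0.26) did not pass the test. Chek2 had 55.3 normalized counts in TAC-Veh 1 and between 135 and 152 in the other libraries of that group, and its log2 fold change was 0.14 ± 0.17 without that library.

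**Figure D3:**
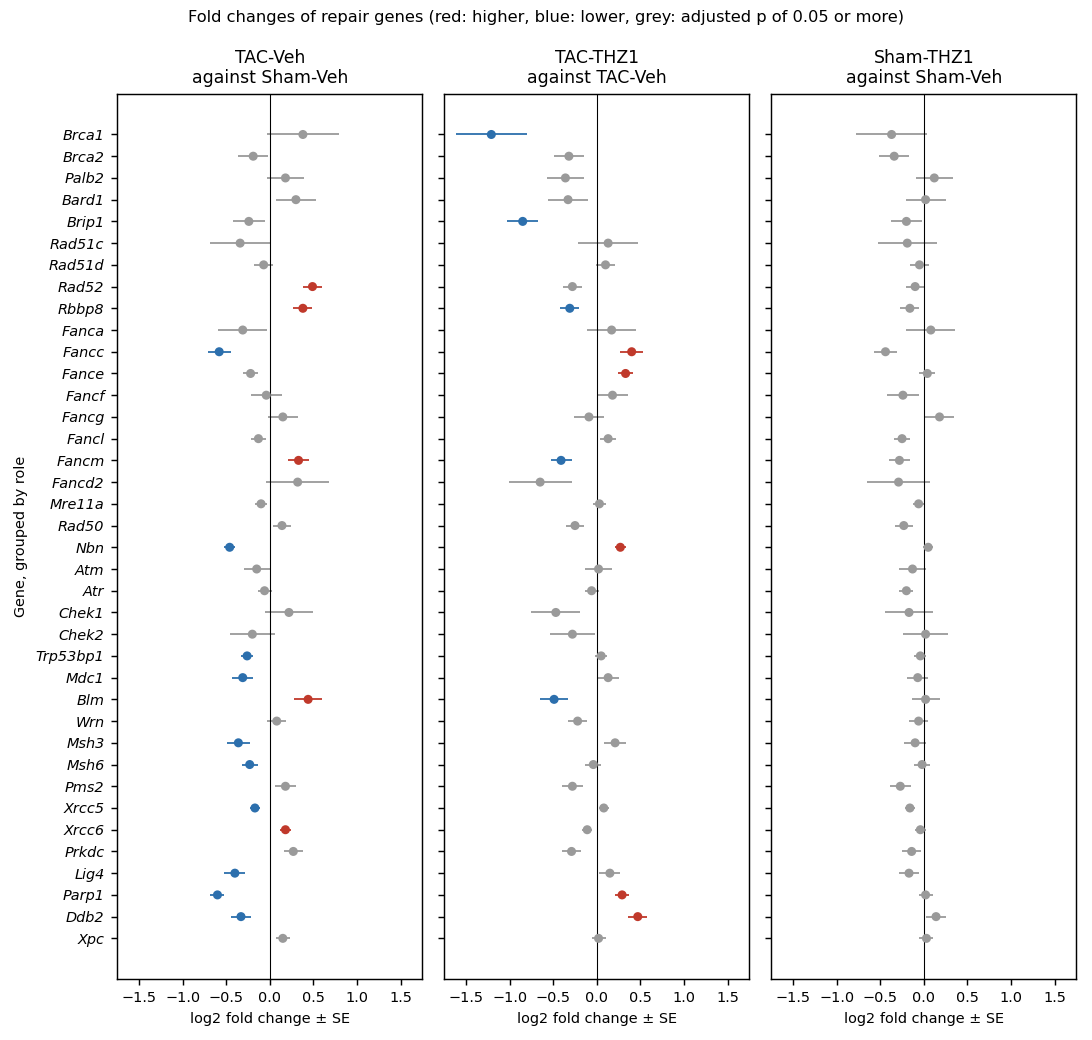
The log2 fold change of each tested gene with its standard error in 3 comparisons, one in each panel, with genes in rows by role. Red points were higher and blue points lower at an adjusted p under 0.05, and grey points did not pass. The panels hold 15, 10 and 0 coloured points.

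The second comparison, TAC-THZ1 against TAC-Veh, asked how the drug moved these genes in constricted hearts. Brca1, Brip1, Blm, Fancm and Rbbp8 fell, and Ddb2, Fancc, Fance, Parp1 and Nbn rose. The 5 lower members are 13.2% of 38, beside 14.2% of all tested genes called lower, and the 5 higher members are 13.2%, beside 15.1% called higher, so both shares were near the background. The median log2 fold change was -0.05 beside 0.015 over all genes, and the median size was 0.26 beside 0.20. Both comparisons use the same TAC-Veh libraries, so an unusual value there enters them with opposite signs and their values are given only side by side. Of the 10 calls, 4 held when any 1 library was left out, those of Brip1, Ddb2, Fance and Nbn. With these 2 groups compared alone, so that the sham libraries did not enter the spread, 0 members were called higher and 1 lower.

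Brip1, the helicase also called FANCJ that binds BRCA1, had 36.4, 42.2, 30.7 and 44.3 normalized counts in TAC-Veh and 15.3, 21.6, 25.2 and 21.8 in TAC-THZ1. The treated libraries were also below all those of Sham-Veh (39.3 to 56.3) and Sham-THZ1 (35.5 to 41.5). The log2 fold change was -0.85 ± 0.18 (adjusted p = 0.00242), and it stayed between -0.95 and -0.71 under all 27 alternatives that gave a value, each with a call. Brip1 spans 143 kb of chromosome 11 at 85871638 to 86014695 (mm9, minus strand) and contains an annotated pseudogene, Gm11477, on the opposite strand.

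Brca1 had 16.5, 22.2, 17.8 and 23.0 normalized counts in TAC-Veh and 5.46, 5.09, 15.5 and 8.91 in TAC-THZ1. All treated libraries lay below all vehicle ones, by little for TAC-THZ1 3, and the log2 fold change of -1.21 ± 0.41 (adjusted p = 0.034) was the largest among the members and the least precise. The call ended without TAC-THZ1 1 (adjusted p = 0.0896), TAC-THZ1 2 (0.102), TAC-THZ1 4 (0.0514), TAC-Veh 2 (0.0824) or TAC-Veh 4 (0.0672). Brca1 lies on chromosome 11 at 101350078 to 101413269 (mm9, minus strand).

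Blm and Fancm, which were higher in TAC-Veh than in Sham-Veh, were at 40.4, 35.6, 40.7 and 41.6 and at 72.1, 77.7, 70.8 and 84.1 normalized counts in TAC-THZ1. None of these treated values reached its TAC-Veh range, and the log2 fold changes were -0.49 ± 0.16 for Blm (adjusted p = 0.0287) and -0.41 ± 0.12 for Fancm (adjusted p = 0.0166). Without TAC-Veh 1 the adjusted p for Blm was 0.0792, and the call was likewise lost without TAC-THZ1 2 (0.0801) or TAC-Veh 4 (0.0526). The call for Fancm ended without TAC-Veh 2 (adjusted p = 0.0651). Rbbp8 had 152, 139, 186 and 180 normalized counts in TAC-THZ1, all below the TAC-Veh libraries (-0.31 ± 0.11, adjusted p = 0.0451). Its call ended when any of 9 libraries was left out, with adjusted p-values from 0.0508 without TAC-Veh 4 to 0.149 without TAC-THZ1 2. The others were TAC-Veh 1 and 2, TAC-THZ1 1, Sham-Veh 1 and 2, and Sham-THZ1 1 and 4.

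**Figure D4:**
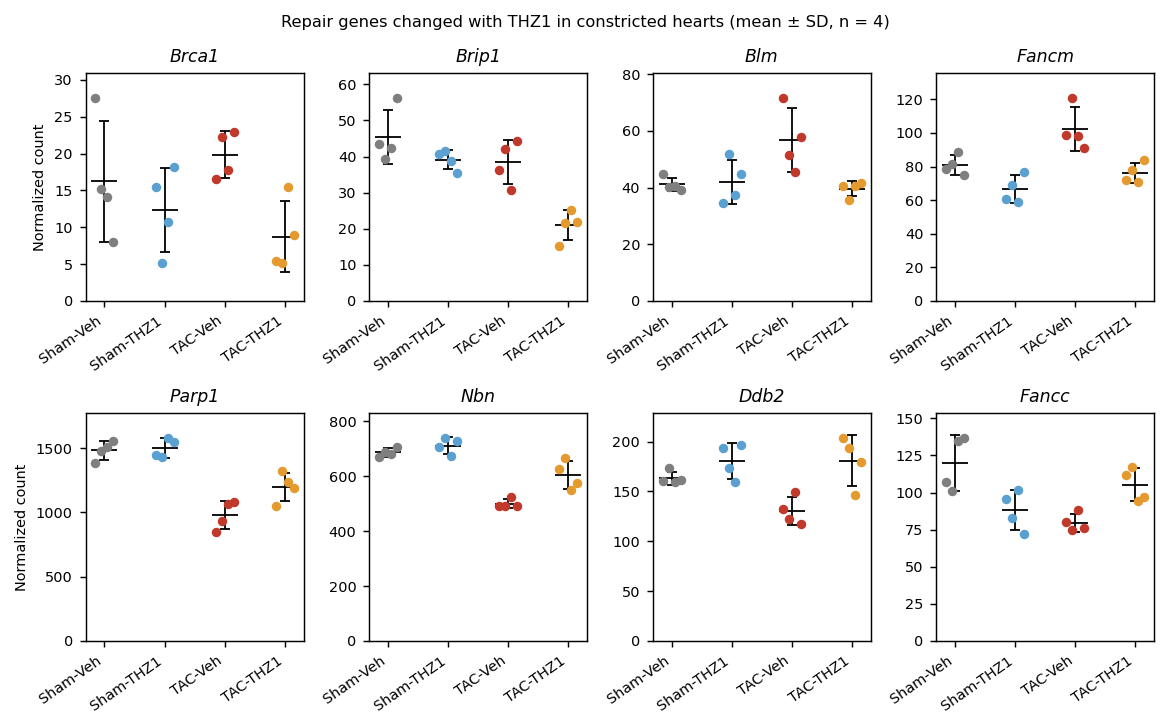
Normalized counts of 8 genes called in TAC-THZ1 against TAC-Veh, 1 panel a gene, by group. Points are libraries and the bar and whiskers give the mean ± SD of 4. In the upper row the 4 TAC-THZ1 points lie below the 4 TAC-Veh points for each gene, and in the lower row the TAC-THZ1 means of Parp1, Nbn, Ddb2 and Fancc lie above those of TAC-Veh.

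The start regions of the genes that fell are shown so that they can be set beside their values, together with that of Parp1, which rose. The windows, from RefSeq on GRCm38.p6, run from 250 bases before to 50 bases after the most upstream annotated start, and were found for 30 of the 39 members and for 4 of the 5 that fell. Capitals mark CCAAT, the box bound by NF-Y, and GGCGGGAA, a core of E2F sites, in either direction.
Brca1, chr11:101551906-101552205, minus strand: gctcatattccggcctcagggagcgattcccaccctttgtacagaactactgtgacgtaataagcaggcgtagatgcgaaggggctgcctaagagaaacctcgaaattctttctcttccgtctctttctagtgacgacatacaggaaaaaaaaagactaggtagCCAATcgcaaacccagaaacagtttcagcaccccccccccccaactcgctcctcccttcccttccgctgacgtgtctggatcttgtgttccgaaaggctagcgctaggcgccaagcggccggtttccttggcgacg
Brip1, chr11:86201144-86201443, minus strand: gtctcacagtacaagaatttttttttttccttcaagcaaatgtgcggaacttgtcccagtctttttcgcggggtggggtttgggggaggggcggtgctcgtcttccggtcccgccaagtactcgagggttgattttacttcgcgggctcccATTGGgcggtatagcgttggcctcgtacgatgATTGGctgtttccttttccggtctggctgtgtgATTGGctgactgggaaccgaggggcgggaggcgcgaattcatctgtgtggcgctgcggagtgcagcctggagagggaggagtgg
Blm, chr7:80534949-80535248, minus strand: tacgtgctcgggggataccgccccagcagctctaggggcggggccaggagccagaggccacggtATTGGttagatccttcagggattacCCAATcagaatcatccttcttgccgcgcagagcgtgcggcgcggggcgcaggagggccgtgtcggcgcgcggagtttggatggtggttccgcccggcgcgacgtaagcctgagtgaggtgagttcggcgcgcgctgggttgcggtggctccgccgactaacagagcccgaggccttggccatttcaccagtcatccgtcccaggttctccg
Fancm, chr12:65075353-65075652, plus strand: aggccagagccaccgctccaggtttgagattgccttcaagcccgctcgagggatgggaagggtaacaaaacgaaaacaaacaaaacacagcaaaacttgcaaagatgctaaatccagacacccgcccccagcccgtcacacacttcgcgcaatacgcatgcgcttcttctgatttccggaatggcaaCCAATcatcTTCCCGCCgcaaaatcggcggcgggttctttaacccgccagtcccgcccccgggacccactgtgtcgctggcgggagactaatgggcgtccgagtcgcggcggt
Parp1, chr1:180568641-180568940, plus strand: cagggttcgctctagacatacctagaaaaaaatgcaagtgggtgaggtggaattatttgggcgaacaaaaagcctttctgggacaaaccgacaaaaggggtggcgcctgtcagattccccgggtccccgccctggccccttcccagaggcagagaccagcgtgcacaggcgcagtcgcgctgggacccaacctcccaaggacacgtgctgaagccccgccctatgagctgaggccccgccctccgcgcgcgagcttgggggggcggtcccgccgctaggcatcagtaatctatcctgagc
CCAAT was present in all 4 of the lower members with a window, in 2 of the 3 higher ones, in 56.7% of the 30 members and in 38% of 27025 genes. GGCGGGAA was in Fancm alone of the 4 lower members and in none of the 3 higher ones, beside 16.7% of the members and 2.27% of all genes. Other E2F-like sites (TTTCCCGC, TTTGGCGC, TTTCGCGC or TTTGCCGC) were in 9 of the 30 members (30%) and in 2.33% of all genes, but in none of the 4 lower or 3 higher ones. The CHR element (TTTGAA or TTCGAA) was in 6.67% of the members and 19.5% of all genes, and in none of the called ones. All 4 motifs were searched on both strands, and a GGCGGGAA site, which reads TTCCCGCC on the other strand, can overlap the first E2F-like form. The matches are a description of these letters only. The genes with an E2F-like site were Brca2, Bard1, Rad51c, Fancg, Chek2, Mdc1, Msh3, Msh6 and Xrcc6.

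Among the members that rose, Ddb2 changed most. Its normalized counts were 132, 122, 149 and 117 in TAC-Veh and 204, 194, 146 and 180 in TAC-THZ1. The groups overlapped through TAC-THZ1 3 and TAC-Veh 3, and the log2 fold change was 0.47 ± 0.11 (adjusted p = 0.00545). Ddb2 shares a stretch of chromosome 2 with Acp2 on the opposite strand.

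Fancc had 112, 117, 94.4 and 97.0 normalized counts in TAC-THZ1, all above its TAC-Veh libraries (0.40 ± 0.13, adjusted p = 0.0353). The call ended without TAC-THZ1 1 (adjusted p = 0.0834), TAC-THZ1 2 (0.103), TAC-Veh 2 (0.0909) or TAC-Veh 4 (0.0661). Fance, another core complex gene, had 142, 157, 179 and 149 in TAC-Veh and 211, 197, 182 and 196 in TAC-THZ1, without overlap (0.33 ± 0.09, adjusted p = 0.0159).

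Nbn had 627, 666, 550 and 575 normalized counts in TAC-THZ1, above all TAC-Veh and below all Sham-Veh libraries (0.27 ± 0.06 against TAC-Veh, adjusted p = 0.00512). Parp1 had 1051, 1319, 1237 and 1188, and TAC-THZ1 1 fell within the TAC-Veh range (0.29 ± 0.08, adjusted p = 0.0148). All 4 of these Parp1 values were below every Sham-Veh library. Without TAC-THZ1 2, the highest, the adjusted p for Parp1 was 0.0564.

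The other 28 tested members did not pass in this comparison. They included the rest of the homologous recombination genes, of which Brca2 (-0.32 ± 0.17), Palb2 (-0.36 ± 0.21), Bard1 (-0.33 ± 0.23) and Rad52 (-0.28 ± 0.11) had negative values with adjusted p-values from 0.0601 to 0.301. Fancd2, the partner of Fanci, had -0.65 ± 0.36 (adjusted p = 0.189) at 11.9 ± 7.05 normalized counts in TAC-THZ1. Its libraries there held 10.9, 5.09, 9.76 and 21.8, and without TAC-THZ1 4, the highest, it passed the test (-0.98 ± 0.34, adjusted p = 0.047). Rad50 (-0.25 ± 0.10, adjusted p = 0.0625) and Prkdc (-0.29 ± 0.11, adjusted p = 0.0563) lay just outside the threshold. Of the kinases, Chek1 had -0.47 ± 0.28, Chek2 -0.28 ± 0.26, Atr -0.06 ± 0.08 and Atm 0.02 ± 0.15. Leaving out TAC-Veh 1 moved the number of members called lower from 5 to 8, with Brca2, Chek2 (-0.62 ± 0.17, adjusted p = 0.0147), Prkdc, Rad50 and Wrn among them. Leaving out TAC-Veh 2, TAC-Veh 4 or TAC-THZ1 2 each left 2, and leaving out TAC-THZ1 2 left 3 called higher.

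In all, 20 of the 38 members (52.6%) were called in neither of these comparisons, beside 46.8% of all tested genes. They were Atm, Atr, Chek1, Chek2, Brca2, Palb2, Bard1, Rad51c, Rad51d, Fanca, Fancf, Fancg, Fancl, Fancd2, Mre11a, Rad50, Wrn, Pms2, Prkdc and Xpc. The listed signalling kinases Atm, Atr, Chek1 and Chek2 are in this set. Chek2 was called lower with the drug when TAC-Veh 1 was left out (-0.62 ± 0.17, limma adjusted p = 0.0147).

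In sham hearts THZ1 moved no member past the threshold. The counts were 0 higher and 0 lower of 38, beside 0.0225% and 0.0450% of all tested genes (limma), and edgeR and DESeq2 on the recovered reads also called 0. At an unadjusted p under 0.05, 0 members were higher and 7 lower. The share of all tested genes at this unadjusted threshold was not computed, so these counts cannot be set against a background. The members' median log2 fold change was -0.10 beside 0.003 over all genes. The smallest adjusted p-values belonged to Fancc, at 95.4, 83.0, 102 and 71.9 normalized counts in Sham-THZ1 (-0.44 ± 0.13, adjusted p = 0.58), and Xrcc5, at 471, 523, 533 and 501 (-0.16 ± 0.06, adjusted p = 0.65). For Fancc, only Sham-THZ1 3 reached the range of Sham-Veh, and for Xrcc5 all drug libraries were below it. Brca1 averaged 16.3 ± 8.19 in Sham-Veh and 12.4 ± 5.74 in Sham-THZ1 (-0.37 ± 0.41), and Brip1 45.4 ± 7.49 and 39.1 ± 2.66 (-0.20 ± 0.18).

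Constriction under THZ1, TAC-THZ1 against Sham-THZ1, shares no library with TAC-Veh against Sham-Veh. Rad52 rose (0.31 ± 0.11, adjusted p = 0.0432), which is 2.63% of the members beside 11.4% of all genes, and Brip1, Parp1, Nbn and Msh6 fell, which is 10.5% beside 12.8%. Parp1 (-0.33 ± 0.08, adjusted p = 0.01), Nbn (-0.24 ± 0.06, adjusted p = 0.0138), Msh6 (-0.25 ± 0.09, adjusted p = 0.047) and Rad52 were thus called in the same direction with and without the drug, 26.7% of the 15 members called under vehicle and 80% of the 5 called under THZ1. Over all tested genes these shares were 34.6% and 64.5%. Brip1 (-0.88 ± 0.18, adjusted p = 0.00319) was called under the drug, at 39.1 ± 2.66 normalized counts in Sham-THZ1 and 21.0 ± 4.14 in TAC-THZ1. The calls of Rad52 and Msh6 ended without any 1 library of either group and without Sham-Veh 1 or 2, that of Msh6 also without Sham-Veh 3 or 4, with adjusted p-values up to 0.132 and 0.153 without Sham-THZ1 1. Without TAC-Veh 1, which enters this comparison only through the pooled spread, Chek2 (-0.49 ± 0.16, limma adjusted p = 0.0301) and Trp53bp1 (-0.17 ± 0.06, adjusted p = 0.0367) were also called lower. Trp53bp1 passed without TAC-THZ1 3 as well (-0.21 ± 0.07, adjusted p = 0.0454).

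The interaction, the drug effect in constricted hearts minus that in sham hearts, tests that difference directly. It was called for Fancc alone (0.84 ± 0.19, adjusted p = 0.0136), which is 2.63% of the members beside 4.40% of all genes called higher. No member was called lower, beside 5.62% of all genes (limma, and 0 with edgeR or DESeq2). At an unadjusted p under 0.05, 6 members were higher and 2 lower, and the share of all genes at that threshold was again not computed. The Fancc means were 120 ± 18.6 (Sham-Veh) and 88.0 ± 13.2 (Sham-THZ1) normalized counts after sham surgery and 79.6 ± 6.20 (TAC-Veh) and 105 ± 11.2 (TAC-THZ1) after constriction. The Fancc mean was thus lower with the drug in sham hearts, where the groups overlapped and the difference did not pass (limma adjusted p = 0.58). It was higher with the drug in constricted hearts, without overlap. The interaction call held without any 1 library. The next smallest adjusted p was that of Fancl, the ubiquitin ligase subunit of the same complex (0.38 ± 0.13, adjusted p = 0.0765). After sham surgery Fancl had 123, 136, 141 and 124 normalized counts under vehicle and 122, 96.8, 114 and 109 under THZ1. After constriction it had 123, 119, 125 and 110 under vehicle and 122, 129, 141 and 132 under THZ1. The Sham-THZ1 libraries lay below all those of Sham-Veh, while the TAC-Veh libraries overlapped with those of Sham-Veh and TAC-THZ1. Brip1, at -0.65 ± 0.25 (adjusted p = 0.106), passed without TAC-Veh 3 (-0.75 ± 0.25, adjusted p = 0.0486), and Brca1 had -0.84 ± 0.57 (adjusted p = 0.369).

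Other genes of the same pathways were read from lists drawn up by role. Of 25 base excision and single-strand break repair genes, 4 rose and 3 fell in TAC-Veh against Sham-Veh. Apex2, an AP endonuclease, fell by 1.18 on the log2 scale (SE 0.16, adjusted p = 2.61e-05) and rose in TAC-THZ1 against TAC-Veh (0.62 ± 0.16, adjusted p = 0.00834), while its relative Apex1 rose with constriction (0.42 ± 0.08, adjusted p = 6.92e-04). With the drug in constricted hearts 4 of these 25 rose and 1 fell, Ung, the uracil glycosylase, among the former (0.46 ± 0.12, adjusted p = 0.00827).

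Of 5 tested further mismatch repair genes, 3 fell with constriction (60.0%, beside 23.6% of all tested genes) and all 5 had a negative value. Their median log2 fold change was -0.42, beside -0.003 over all genes. Among those that fell were Pms1 (-0.60 ± 0.14, adjusted p = 0.00291) and Mlh3 (-0.50 ± 0.13, adjusted p = 0.00415). With THZ1 in constricted hearts 0 of the 5 passed in either direction. Msh5, known for its part in meiosis, had 0.59 ± 0.23 there (adjusted p = 0.0666).

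Of 23 tested further homologous recombination genes, 3 rose and 1 fell with constriction, and 4 rose and 2 fell with the drug in constricted hearts. The nuclease gene Mus81 rose with the drug (0.33 ± 0.07, adjusted p = 0.0037). Of 15 further Fanconi anemia genes, 3 rose and 2 fell with constriction (20.0% and 13.3%) and 1 rose with the drug (6.67%). The last was Faap100 of the core complex, which fell with constriction (-0.60 ± 0.12, adjusted p = 8.39e-04) and rose with THZ1 (0.39 ± 0.12, adjusted p = 0.0247).

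Of 25 tested checkpoint and chromatin signalling genes, 1 rose and 4 fell with constriction, and 1 rose and 2 fell with the drug. Rpa1, which coats single-stranded DNA, fell with constriction (-0.46 ± 0.06, adjusted p = 9.97e-06) and rose with the drug in constricted hearts (0.25 ± 0.06, adjusted p = 0.00408). Clspn, the adaptor that carries the signal from ATR to CHK1 in replicating cells, fell with the drug (-1.28 ± 0.36, adjusted p = 0.0143) at a mean of 17.8 normalized counts. Of 21 nucleotide excision repair genes, 2 rose and 2 fell with constriction (9.52% each) and 1 rose with the drug (4.76%). Ercc2, a helicase of TFIIH, fell with constriction (-0.38 ± 0.09, adjusted p = 0.00271). Of 7 tested further end joining genes, Poll fell with constriction (-0.22 ± 0.07, adjusted p = 0.0243) and rose with the drug (0.22 ± 0.07, adjusted p = 0.0317), and no other passed. Of the 3 genes that reverse alkylation directly, Mgmt fell with constriction (-0.44 ± 0.10, adjusted p = 0.0028) and rose with the drug in constricted hearts (0.38 ± 0.10, adjusted p = 0.0113). Alkbh3 and Alkbh2 rose with constriction (0.46 ± 0.08, adjusted p = 3.91e-04, and 0.62 ± 0.20, adjusted p = 0.0199). The shares of these lists are to be read beside the 21.4% of all tested genes called higher and 23.6% called lower with constriction. With the drug in constricted hearts the background was 15.1% higher and 14.2% lower. For the genes of these lists too, both comparisons use the same TAC-Veh libraries, which enter them with opposite signs.

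Genes activated by p53, the factor that ATM and the checkpoint kinases stabilize, were read from a list of 30. Of these 30 targets, 11 rose and 4 fell with constriction (36.7% and 13.3%, beside 21.4% and 23.6% of all tested genes, median 0.28), and 2 rose and 7 fell with the drug in constricted hearts (6.67% and 23.3%, beside 15.1% and 14.2%, median -0.24). Phlda3, a repressor of AKT, rose by 1.28 ± 0.16 (adjusted p = 1.24e-05) and fell with the drug (-0.91 ± 0.16, adjusted p = 7.77e-04), and Bax, which promotes apoptosis, rose with constriction (0.57 ± 0.08, adjusted p = 5.1e-05). Many of these targets respond to other signals as well. A list of 9 genes held Cdk7, Cdk12 and Cdk13, whose kinases THZ1 inhibits, and also Cdk9 and partners of these kinases. Of the 9, 1 rose and 6 fell with constriction (11.1% and 66.7%, beside 21.4% and 23.6% of all tested genes). With the drug in constricted hearts 1 rose and 0 fell (11.1% and 0%, beside 15.1% and 14.2%). The gene that rose was Ccnh (0.38 ± 0.08, adjusted p = 0.00171), which encodes cyclin H.

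Proliferation genes are given because homologous recombination is used in dividing cells. Of 39 tested, 10 rose with constriction (25.6%, near the 21.4% of all tested genes) and 0 fell (beside 23.6%), with a median of 0.55, and 0 rose and 20 fell with THZ1 in constricted hearts (51.3%, beside 14.2% of all tested genes, median -0.79). Prc1, needed for cell division, fell by 2.09 on the log2 scale (SE 0.27, adjusted p = 8.95e-05) and Birc5, which encodes survivin, by 1.46 (SE 0.22, adjusted p = 2.5e-04). Their summed level ranged from 3351 to 3518 normalized counts (Sham-Veh) and from 2998 to 3674 (Sham-THZ1) after sham surgery, and from 3562 to 5125 (TAC-Veh) and 2678 to 3344 (TAC-THZ1) after constriction. It was higher in TAC-Veh than in Sham-Veh by 0.32 and lower in TAC-THZ1 than in TAC-Veh by 0.54 on the log2 scale (exact permutation p = 0.0286 each). None of the 39 genes was at 0 in every library. The part of dividing cells, fibroblasts or muscle cells in the results for Brca1, Brip1, Blm, Fancm, Parp1 and the other members was not tested.

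**Figure D5:**
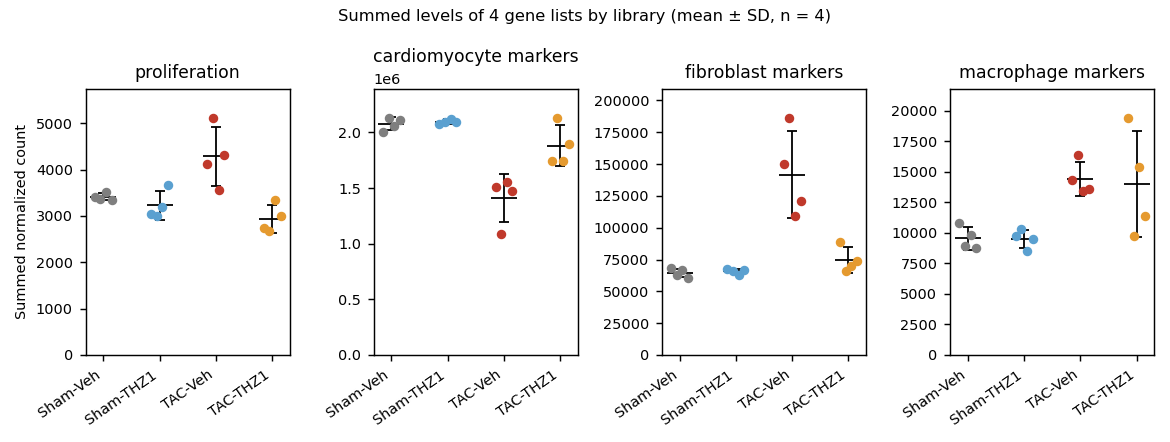
Summed normalized counts of the proliferation genes and of the cardiomyocyte, fibroblast and macrophage markers, 1 panel a list, by group. Points are libraries and the bar and whiskers give the mean ± SD of 4. The 4 TAC-Veh points lie above all Sham-Veh points for proliferation genes and fibroblast markers and below them for cardiomyocyte markers.

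The members spanned more genome than most genes, with a median of 51.3 kb from start to end beside 23.7 kb over all genes tested. The 5 that fell with THZ1 in constricted hearts spanned 56.5 to 143 kb (median 80.1), the 5 that rose 13 to 193 kb (median 32.3) and the 28 that did not pass 1.69 to 204 kb (median 48.7). Across the 38 members, Spearman's rho between span and the log2 fold change of that comparison was -0.228, beside -0.162 over all 13331 genes, and with the mean normalized count it was 0.470, beside 0.133. These correlations run across genes that share the same 16 libraries and are descriptions. Whether span had a part in these values was not tested. Of the long members, Brip1 (143 kb) and Rbbp8 (110 kb) were called lower with the drug. Prkdc (204 kb), Fancc (193 kb), Wrn (151 kb) and Msh3 (143 kb) were not. Fancc rose, while Prkdc (-0.29 ± 0.11) and Wrn (-0.22 ± 0.11) had negative values and passed the test without TAC-Veh 1 (adjusted p = 0.0201 and 0.0147). In the vehicle comparison of constricted with sham hearts, rho with span was 0.0971 for the members and -0.123 for all genes, and with the mean normalized count -0.371 and -0.160.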

How the data were processed

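RNA from pieces of mouse ventricle was sequenced after stranded, poly(A)-selected library preparation. The submitters' processing notes name TopHat2 2.1.1, HTSeq and DESeq2, with the builds mm9 and rn5. The authors deposited 1 table of signal values, the gene counts of the 16 libraries divided by size factors (normalized counts). Every value is a whole multiple of the value of 1 read in its library (100% within a tolerance of 0.001), so reads were recovered. Library pairs of a group differed beyond sampling noise. The chi-square per degree of freedom was 2.97 to 7.51 in the sham groups, 50.6 to 93.5 in TAC-Veh and 10.2 to 55.8 in TAC-THZ1. Constricted pairs thus differed more than sham pairs, while the single-gene tests pool the spread over all 4 groups. Genes with at least 10 normalized counts in at least 4 libraries were kept. log2(normalized count + 1) was fitted with 1 mean per group over all 16 libraries in limma 3.58.1 (R 4.3.3) with a mean-variance trend, and p-values were adjusted by Benjamini-Hochberg over all genes within each of 5 contrasts. Fold changes are on this scale, which understates changes of low genes. Summed lists were compared by two-sided exact permutation tests. The depth, 21.4 M to 35.8 M reads, limits genes of few reads.

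Members and lists were chosen with earlier results of these data known. Any member could be named. Values of each library are given for called members, and for the 2 with the smallest adjusted p in the sham and interaction contrasts; from each other list, up to 3 genes with the smallest adjusted p in the TAC and THZ1 comparisons were named. Some genes that this rule names are not reported here. The promoter windows shown were chosen after the values were seen. Gene symbols and positions come from the NCBIM37 (mm9) annotation, in which all 39 were found (1 under an older symbol). The fits were also run on simulated data, whose outcome is not reported here and is not used as support. Alternatives were other pseudocounts, filters, scalings, weights, thresholds, the replicate block, leaving out each library, and, on recovered reads, edgeR 4.0.16 and DESeq2 1.42.0. The labels give THZ1 as 10 mg/kg in 2 doses a day and the methods of the study as 1 daily amount. The study's methods state that HTSeq counted reads by strand.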

Additional observations from a re-analysis of the deposited data

Results flagged for a closer look

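In 8 of 152 sets of 4 libraries 1 library stood far from the other 3. Chance flags about 1 in 20 groups, which is near the number seen. Palb2 was 29.7 normalized counts in Sham-Veh 1 against 21.7 to 23.0 in the others. Fancf was 36.4 in TAC-Veh 1 against 26.4 to 26.7. Mre11a was 296 in Sham-Veh 2 against 267 to 269. Nbn was 524 in TAC-Veh 3 against 491 to 493, still below every sham library. Trp53bp1 was 621 in Sham-THZ1 2 against 662 to 671. Lig4 was 228 in TAC-THZ1 3 against 194 to 197. Ddb2 was 173 in Sham-Veh 2 against 159 to 161. Xpc was 394 in Sham-THZ1 3 against 444 to 452.

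The drug effect on Fancc differed between constricted and sham hearts by 0.84 on the log2 scale (limma interaction, adjusted p = 0.0136).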

How the results depend on the processing

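No called fold change of a member reversed. Of 862 recomputed values for the 31 called fold changes, 720 kept direction and call and 142 kept direction only. Counts of members are given below where they moved by over 1.5 times. The cause was not tested except where fewer samples, a stricter threshold or the removal of called genes by a filter explains it. Members higher in TAC-Veh against Sham-Veh (5) were 3 with no filter, 3 with quantile normalization, 2 with the groups compared alone, 1 at an adjusted p under 0.01, 0 at the study's fold thresholds, and 2 to 6 with a library left out. Members lower there (10) were 5 with array weights, 4 at 0.01, 0 at the fold thresholds, and 5 to 10 with a library left out (5 without Sham-Veh 2, 6 without TAC-Veh 2). Members higher in TAC-THZ1 against TAC-Veh (5) were 0 with the groups alone, 2 with array weights, 2 at 0.01, 0 at the fold thresholds, and 3 to 5 with a library left out. Members lower there (5) were 3 with no filter, 2 with a mean of at least 50, 1 with the groups alone, 1 with array weights, 1 at 0.01, 1 at the fold thresholds, and 2 to 8 with a library left out. The filter at a mean of 50 removed Brca1 (mean 14.3), Brip1 (36.0) and Blm (44.9), which are among these 5. Array weights called 3 members lower in Sham-THZ1 against Sham-Veh, where the count was otherwise 0. The 1 member higher in TAC-THZ1 against Sham-THZ1 was 0 with no filter, quantile normalization, the replicate block, DESeq2, 0.01 or the fold thresholds, 2 with array weights, and 0 to 1 with a library left out. The 4 lower there were 1 at 0.01, 0 at the fold thresholds and 3 to 6 with a library left out. The interaction count of 1 was 0 at 0.01 and at the fold thresholds, and the count of 0 lower was 0 to 1 with a library left out. The fold threshold of 0.89 for the drug was set by the study on these samples.

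Same-numbered libraries did not deviate together (24 pairs, r from -0.431 to 0.164, 5 of 16 libraries closest to their own number), so the numbers were not taken to pair mice. With the replicate block, 4 members were higher and 8 lower in TAC-Veh against Sham-Veh, 5 and 4 in TAC-THZ1 against TAC-Veh. Depth limits Brca1, Fancd2, Fanci and other members below about 20 normalized counts.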
